A study of Mus musculus with 7 samples.

Results

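Alternative transcript starts are the different first exons from which 1 gene is transcribed, and here they were followed in cultured mouse neural cells under 6 insecticides. The members were all listed transcript starts of genes that had 2 or more different starts over the 7 libraries, where a start is told apart by the inner boundary of its first exon. This gave 26450 starts in 7812 genes, out of 32146 distinct starts and 13203 genes with a start in the whole series. The other 5391 genes had a single start, and 305 starts carried no gene identifier. For each gene, the share of a start is its FPKM (fragments scaled to transcript length and library size) as a percentage of the summed FPKM of all starts of that gene, which is called the start total below. The main start is the one with the highest mean share over the 7 libraries.

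Total RNA was sequenced from 7 cultures, with 1 library for the control and 1 for each insecticide. The insecticides were the organophosphate chlorpyrifos, the organochlorine DDT, the complex I blocker rotenone, the carbamate carbaryl, the pyrethroid deltamethrin and the neonicotinoid imidacloprid. All 7 came from wild-type (WT) cells of the 1 embryonic stem cell line B6G-2, which formed embryoid bodies for 6 days and were then grown as neural progenitors with bFGF and EGF. At day 14 the progenitors were moved to BrainPhys medium with B27, in which they become nerve and glial cells, and exposure lasted 1 day. Neither dose nor vehicle is stated in these labels, and the tissue is entered as brain, whereas the source is a stem cell culture. The question of the series is the toxicity of insecticides to the developing nervous system. Since each group is a single library, differences are given without any replicate check or p-value, and "rose", "fell" and "moved" mean only that a share differed from control by 25 percentage points or more.

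A promoter is the stretch of DNA around a transcript's first base where RNA polymerase II and the general transcription factors assemble. Many mammalian genes have several promoters, which can answer to different signals and can give transcripts with another first exon, another leader or another amino end of the protein. Promoters in CpG islands, which are rich in the otherwise rare dinucleotide CG, are common at broadly used genes, while promoters poor in CG are more often used in particular tissues. In neural genes such as Bdnf and the neurotrophin receptors, alternative promoters are a textbook way to make different isoforms from 1 locus.

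The sequences below show the promoter pairs on which several of the results turn. They are the 120 bases just before the RefSeq transcript start (build GRCm38.p6) that lies within 100 bp of a listed start, written 5′ to 3′ on the gene's strand, with every CG in capitals. Rgs12 (regulator of G protein signalling 12) is shown because its main start gave way to others in 3 libraries. Its main promoter window lies at chr5:34949328-34949447 on the plus strand and holds 8 CG, and the window of its second start at chr5:34998958-34999077 holds 3.
Rgs12 main start: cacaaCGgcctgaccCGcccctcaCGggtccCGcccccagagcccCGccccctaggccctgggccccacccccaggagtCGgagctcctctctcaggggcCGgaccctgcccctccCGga
Rgs12 second start: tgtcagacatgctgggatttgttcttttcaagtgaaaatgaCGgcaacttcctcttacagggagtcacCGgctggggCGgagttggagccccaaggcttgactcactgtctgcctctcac
Sept9, which encodes the filament-forming GTPase septin 9, is shown because 3 starts shared its transcripts. Its windows lie on the plus strand at chr11:117266126-117266245, chr11:117331595-117331714 and chr11:117332193-117332312 and hold 10, 1 and 8 CG.
Sept9 main start: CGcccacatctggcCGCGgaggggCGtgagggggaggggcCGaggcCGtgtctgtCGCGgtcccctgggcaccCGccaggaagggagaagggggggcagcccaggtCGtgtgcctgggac
Sept9 second start: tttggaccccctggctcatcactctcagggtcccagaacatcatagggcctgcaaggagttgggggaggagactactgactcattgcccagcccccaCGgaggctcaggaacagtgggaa
Sept9, the third start: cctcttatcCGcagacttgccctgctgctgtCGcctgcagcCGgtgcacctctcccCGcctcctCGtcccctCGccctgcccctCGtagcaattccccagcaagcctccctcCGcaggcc
Ldha, which encodes the A subunit of lactate dehydrogenase, is shown because a CG-poorer and a CG-richer start shared its transcripts in every library. Its main window at chr7:46846962-46847081 on the plus strand holds 5 CG, and the window of the second start, which lies upstream at chr7:46845684-46845803, holds 18.
Ldha main start: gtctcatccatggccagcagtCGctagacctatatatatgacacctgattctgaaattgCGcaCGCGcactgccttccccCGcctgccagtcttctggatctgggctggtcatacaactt
Ldha second start: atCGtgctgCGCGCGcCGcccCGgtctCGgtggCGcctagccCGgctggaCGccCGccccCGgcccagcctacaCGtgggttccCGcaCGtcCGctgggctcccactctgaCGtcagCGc
Rbms2, which encodes an RNA-binding protein, is shown as a gene with CG-poor windows at both starts, at chr10:128176569-128176688 and chr10:128180298-128180417 on the minus strand, with 4 and 0 CG.
Rbms2 main start: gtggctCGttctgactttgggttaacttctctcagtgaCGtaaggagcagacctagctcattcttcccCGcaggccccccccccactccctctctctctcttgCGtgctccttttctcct
Rbms2 second start: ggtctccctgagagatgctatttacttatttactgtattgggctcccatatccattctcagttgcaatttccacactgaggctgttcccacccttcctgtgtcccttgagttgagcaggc
For 2 further genes 1 of the 2 windows is shown. The upstream start of Ccnd3 (cyclin D3), used mainly in 2 libraries, has its window at chr17:47504931-47505050 on the plus strand with 5 CG. The main start of Tcf7l2, a transcription factor of Wnt signalling, has its window at chr19:55741690-55741809 on the plus strand with 10 CG.
Ccnd3 second start: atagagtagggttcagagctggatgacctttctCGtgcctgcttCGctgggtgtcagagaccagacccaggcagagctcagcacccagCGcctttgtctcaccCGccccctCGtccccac
Tcf7l2 main start: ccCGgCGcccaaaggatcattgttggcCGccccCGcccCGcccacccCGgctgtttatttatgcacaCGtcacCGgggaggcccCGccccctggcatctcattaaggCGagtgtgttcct

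The printed windows are examples and were not chosen to represent the wider set described here. Among 3788 genes whose 2 leading starts match the named gene and lie 500 bp or more apart, 2335 main starts and 577 second starts had a RefSeq promoter within 100 bp. Over the 300 bases from 250 before to 50 after the RefSeq start, the median ratio of observed to expected CG was 0.813 at main starts, 0.623 at second starts and 0.384 over all 32851 RefSeq promoters. A ratio of 0.6 or more was found at 82.8% of main starts, 51.8% of second starts and 35.8% of all promoters.

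In 340 genes both starts had a RefSeq promoter of their own, so that the 2 promoters of 1 gene could be set side by side. The ratio was higher at the main start in 204 of the 340 genes (60%), with medians of 0.716 and 0.533. Both promoters reached 0.6 in 99 genes, only the main one in 129, only the second in 50 and neither in 62. Where only the main promoter was CG-rich, the main start held a median 83.7% of the start total and its share ranged over 26.5 points between libraries. Where only the second was CG-rich, the main start held 66.7% and ranged over 47.1 points. These are descriptions of groups of unequal size, and the difference between them was not tested. The motif TATAAA, searched on the gene's own strand where it begins 40 to 20 bases before the start and overlapping no other motif searched, was present at 0.642% of main starts, 0.693% of second starts and 1.99% of all RefSeq promoters.

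**Figure D1:**
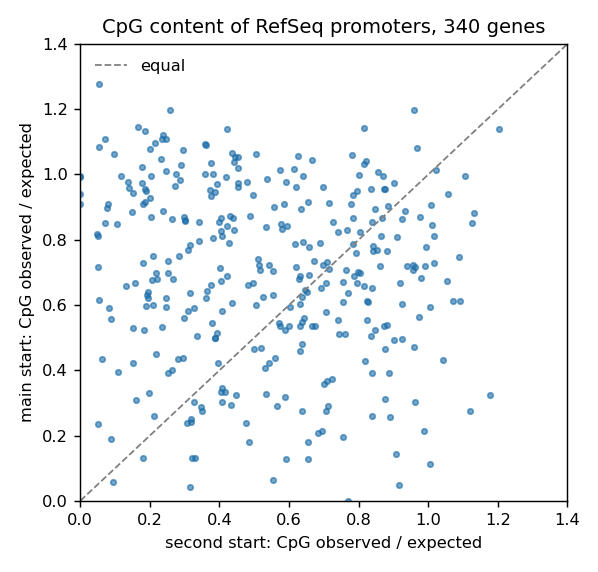
Ratio of observed to expected CG in the 300-base RefSeq promoter of the main start (vertical axis) against that of the second start (horizontal axis), 1 point per gene, for the 340 genes with a RefSeq promoter at both starts. The points lie above the dashed line of equality, where the main start has the higher ratio, in 204 genes.

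The listing of starts sets what can be read from them. Of the 26450 starts, 84.1% ended at an exon boundary of the gene they are listed under, 5.68% matched another gene only and 10.3% matched no exon boundary of the GENCODE M21 annotation. Starts that matched their gene held 90.6% of the start FPKM. A start of another gene was listed in 524 genes, and 602 genes had starts on both strands or on more than 1 chromosome. Only starts with a value above 0 are listed, and an unlisted start was taken as 0. All 7 libraries listed 14690 of the starts (55.5%), and 4233 (16.0%) were listed in 1 library only. More starts were listed on the plus strand, with 18751 in 7552 genes against 13090 in 6253 genes on the minus strand, although the annotation holds 27852 and 27684 genes on them. The number of reads behind a value is unknown, since the files hold no counts.

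Of the 7812 genes, 6975 with 24368 starts had a mean start total of at least 1 FPKM and a start listed in every library, and these are the genes compared below, called tested genes. Another 744 had a lower mean, and 93 had no start listed in some library. Most genes leaned on 1 start. The main start held a median of 91.7% of the start total, 90% or more in 3742 genes (53.6%) and under 60% in 992 (14.2%). Single libraries were alike in this, with medians between 95.1% and 95.4%. Over all 7812 genes, tested or not, the commonest number was 2 starts, in 3116 genes, while 72 genes had 10 or more and the highest number was 36.

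The share of the main start ranged over a median of 18.8 percentage points between the lowest and the highest of the 7 libraries. In 1703 genes (24.4%) it stayed within 5 points. The start that led the gene was not the same in all 7 libraries in 1878 genes (26.9%). In 299 genes (4.29%) the main start held 90% or more in 1 library and 10% or less in another. Of these 299, 133 had a start total under 1 FPKM in some library, and the start total stayed within 1.5-fold over the libraries in 47 (15.7%), against 53.3% of the other genes tested. So the complete exchanges of 1 start for another mostly came with an unsteady total, and in bulk RNA such as this, fewer cells of a type and less RNA per cell cannot be told apart.

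The spread was smaller in genes of higher level. It was 37.5 points in genes of 1 to 5 FPKM, 19.2 points from 5 to 20 FPKM, 9.63 points from 20 to 50 FPKM and 5.92 points at 50 FPKM or more. It was larger with more starts, from 8.26 points with 2 starts to 17.8 with 3, 28.4 with 4 and 37.6 with 10 or more. Median main shares in these classes of start number were 97.8%, 92.7%, 84.6% and 54.2%. In the classes of level they were 86.3%, 91.4%, 94.6% and 96.8%. How far main share accounts for the differences by level and start number was not tested.

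**Figure D2:**
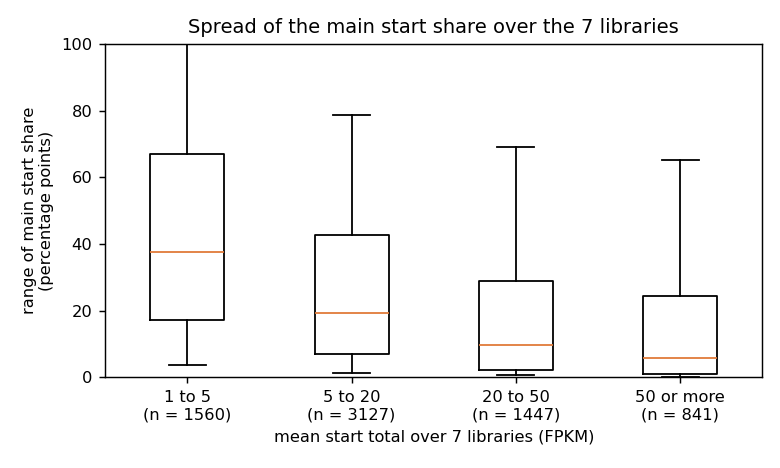
Range of the main start share over the 7 libraries in percentage points, by the mean start total of the gene in FPKM. Boxes span the quartiles with the median as a line, and whiskers reach the 5th and 95th percentile of genes. The median falls from 37.5 points in the lowest class to 5.92 points in the highest.

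The spread also differed with the position of the starts. In 550 genes the 2 leading starts began at the same base and differed only in the inner end of the first exon, as alternative splice donors of 1 promoter do, and their main share ranged over 28.6 points. Pairs at least 5000 and under 50000 bp apart (1867 genes) ranged over 12.6 points, and pairs 50000 bp or more apart (663 genes) over 25.1 points. Of the 3788 genes with starts 500 bp or more apart, the main start was the upstream one in 84.2%. For coding content, start codons were taken only from transcripts annotated as protein-coding. The 2674 genes with such a codon in transcripts of the main start, but in none of the second, ranged over 9.70 points. The 1685 genes whose 2 starts share 1 start codon, so that they differ in the leader ahead of it, ranged over 31.4 points, and the 942 genes with 2 different start codons over 20.2 points. Median start totals in these 3 classes were 12.8, 11.6 and 12.4 FPKM, and their median main shares were 95.5%, 81.3% and 89.3%. In the 3 distance classes above, median main shares were 85.7%, 94.1% and 86.9%. Over all tested genes the median range was 3.73 points at a mean main share of 95% or more and 57.8 points under 60%. How far main share accounts for the differences by distance and coding content was not tested.

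Against control, each insecticide library had about as many moved genes as any other. The main start moved in 1100 of 6975 genes (15.8%) in chlorpyrifos, 1089 (15.6%) in DDT and 1069 (15.3%) in rotenone. It moved in 1078 (15.5%) in carbaryl, 1083 (15.5%) in deltamethrin and 1122 (16.1%) in imidacloprid. The 15 pairs of exposed libraries, which have no control in them, gave 1020 to 1089 moved genes (14.6% to 15.6%). The 6 comparisons share the 1 control library, and their counts are not independent. Among the 3788 genes with well separated starts in the named gene, 14.7% to 15.7% moved against control and 14.2% to 15.4% between exposed libraries.

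**Figure D3:**
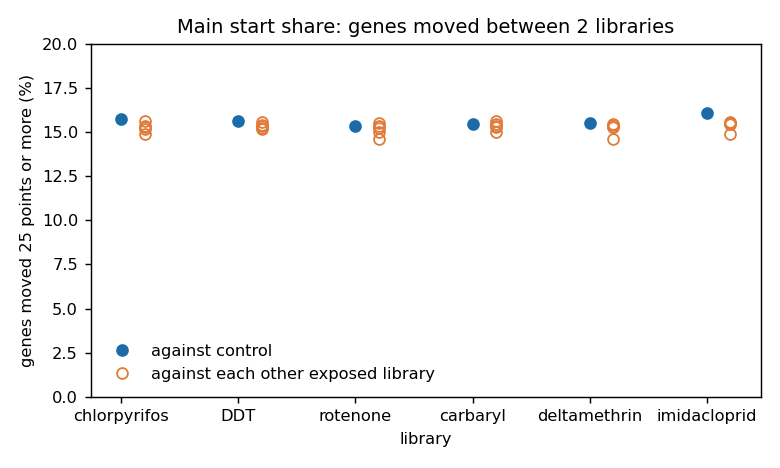
Percentage of the 6975 genes whose main start share differed by 25 points or more between 2 libraries. Filled points compare each insecticide with control and open points compare it with each other insecticide. All values lie between 14.6% and 16.1%.

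Rises and falls were near equal in number when the main start was defined over all libraries. The share rose in 564 genes (8.09%) in chlorpyrifos, 582 (8.34%) in DDT, 581 (8.33%) in rotenone, 563 (8.07%) in carbaryl, 567 (8.13%) in deltamethrin and 586 (8.4%) in imidacloprid. It fell in 536 genes (7.68%) in chlorpyrifos, 507 (7.27%) in DDT, 488 (7%) in rotenone, 515 (7.38%) in carbaryl, 516 (7.4%) in deltamethrin and 536 (7.68%) in imidacloprid. When the main start was defined by its share in control instead, 237 to 263 rose and 871 to 921 fell, so the split by direction rests on that choice. Each library stood apart in a like number of genes. The main share lay 25 points or more outside the range of the other 6 libraries in 135 genes (1.94%) for control. For the exposed libraries this was 148 genes (2.12%) in chlorpyrifos, 138 (1.98%) in DDT, 123 (1.76%) in rotenone, 131 (1.88%) in carbaryl, 122 (1.75%) in deltamethrin and 136 (1.95%) in imidacloprid. The lone library was the lower one in 124 of the 135 genes for control and in 103 to 135 for the exposed. A mean main share of 90% or more, found in 53.6% of genes, leaves no room for a library 25 points higher. This direction therefore also rests on the choice of main start.

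The FPKM of the main start itself, on the log2(FPKM + 1) scale, differed 2-fold or more from control in 8.18% of 6812 main starts in chlorpyrifos, 8.41% in DDT, 7.44% in rotenone, 8.4% in carbaryl, 7.66% in deltamethrin and 8.41% in imidacloprid. Of 3258 starts of genes with a single start, 3.53% differed that much in chlorpyrifos, 4.27% in DDT, 4.21% in rotenone, 4.27% in carbaryl, 3.93% in deltamethrin and 3.65% in imidacloprid. The levels of the 2 sets were not matched.

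The genes with the largest changes at starts 500 bp or more apart include both cyclins D2 and D3, which drive the cell through G1 by activating CDK4 and CDK6. Ccnd2 (ENSMUSG00000000184, chromosome 6, minus strand) used a main start whose first exon spans 127150582 to 127151060 and a second start 1133 bp upstream. Its main start held 98.9% in control, 99.05% in chlorpyrifos, 99.8% in DDT, 0.291% in rotenone, 0.476% in carbaryl, 98.8% in deltamethrin and 99.9% in imidacloprid. Rotenone and carbaryl thus listed nearly all Ccnd2 at the second start, while the start total stayed between 112 and 142 FPKM. The second first exon is only 32 bases long as listed, from 127152162 to 127152193.

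Ccnd3 (ENSMUSG00000034165, chromosome 17, plus strand) has its 2 leading starts at 47593436 and, 88385 bp upstream, at 47505051. The main start held 0.168% in control, 97.8% in chlorpyrifos, 99.3% in DDT, 96.2% in rotenone, 97.9% in carbaryl, 98.9% in deltamethrin and 5.40% in imidacloprid. The upstream start, whose promoter is printed above, held 95.2% in control and 90.02% in imidacloprid and was at or near 0 in the other 5. Control and imidacloprid therefore stand together, and the start total of 34.5 to 47.9 FPKM does not separate them from the rest.

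In Wnk2, a kinase of the WNK family that regulates ion transport, the 2 leading starts lie 780 bp apart on chromosome 13. The main share was 100% in control, DDT and deltamethrin, 2.70% in chlorpyrifos, 2.83% in rotenone, 32.8% in carbaryl and 15.1% in imidacloprid, at start totals of 6.94 to 8.06 FPKM. Adgrb3 encodes an adhesion G protein-coupled receptor of synapses. Its main start held 98.5% in control, 2.41% in chlorpyrifos, 71.9% in DDT, 10.6% in rotenone, 97.4% in carbaryl, 97.8% in deltamethrin and 98.3% in imidacloprid, with start totals of 5.76 to 6.98 FPKM. In both genes the exposed libraries lay on either side of 50%, with chlorpyrifos and rotenone low.

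Trp53bp1 encodes 53BP1, which binds chromatin at DNA double-strand breaks and steers their repair to end joining. Its leading starts lie 50166 bp apart on chromosome 2, and the main start held 95.6% in control, 87.3% in chlorpyrifos, 96.9% in DDT, 51.4% in rotenone, 43.6% in carbaryl, 2.21% in deltamethrin and 2.59% in imidacloprid. The start total was 7.72 to 13.0 FPKM in the first 4 of these and 15.4 to 22.7 FPKM in carbaryl, deltamethrin and imidacloprid. In Pop5, a subunit of the RNA-processing enzymes RNase P and RNase MRP, the main share was 2.08% in control, 4.68% in chlorpyrifos, 95.4% in DDT, 95.3% in rotenone, 6.54% in carbaryl, 94.4% in deltamethrin and 97.9% in imidacloprid. The libraries with the low share had start totals of 23.6, 11.8 and 7.12 FPKM, and the others 25.2 to 30.5 FPKM.

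In Rbms2, whose 2 windows are printed above, the main start held 100% in control, chlorpyrifos, carbaryl and deltamethrin, 99.2% in DDT, 19.4% in rotenone and 9.80% in imidacloprid. Its start total was 0.759 FPKM in deltamethrin and 8.36 to 17.4 FPKM elsewhere. Psph encodes phosphoserine phosphatase, the last enzyme of serine synthesis. Its main share was 99.2% to 100% in 6 libraries and 10.4% in deltamethrin, where the start total was the highest at 28.4 FPKM.

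In 4 of the genes with the largest changes the values beside the share qualify it. Psmc2, an ATPase subunit of the proteasome, had a main share of at least 99.97% in 5 libraries, with start totals of 72.9 to 84.0 FPKM, and 0 in DDT and carbaryl. There the start total was 0.0318 and 0.0299 FPKM, so in these 2 libraries the main start was not listed at all and the share describes a trace. Myo9b, an unconventional myosin, was at 94.8% to 100% in 6 libraries and at 0 in DDT, where the start total was 1.67 FPKM against 9.09 to 20.2 FPKM. Gapdh, the glycolytic enzyme, had a main share of 100% in 6 libraries and 2.14% in rotenone, but its listed starts summed to only 0.880 to 32.5 FPKM. Zfand1, a zinc finger protein linked to stress granule clearance, had no main start listed in control and 98.1% in chlorpyrifos, 97.9% in DDT, 16.9% in rotenone, 56.6% in carbaryl, 20.4% in deltamethrin and 93.5% in imidacloprid. The third start begins at the same base as the main one and held 57.0% in control, so part of this contrast lies in the end of 1 first exon.

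Other genes kept a fixed proportion between starts. These are the 4 with the smallest range among genes of at least 20 FPKM whose main share averaged 40 to 80%, so that their stability was what chose them. Scrib, a scaffold of epithelial and neural cell polarity, had a main share of 74.9% in control, 75.05% in chlorpyrifos, 76.2% in DDT, 75.3% in rotenone, 76.4% in carbaryl, 74.9% in deltamethrin and 78.8% in imidacloprid. Its second start, 20463 bp downstream on chromosome 15, held 20.8% to 23.3%. Dhps, which makes the hypusine residue of translation factor eIF5A, had a main share of 52.2% to 56.7%, and Snapc2, a subunit of the complex that activates small nuclear RNA genes, had 75.9% to 81.8%. Ubr4, an E3 ubiquitin ligase, divided its 27.6 to 32.6 FPKM among 3 starts: the main start held 38.4% to 45.6% and the second 23.0% to 34.7%. The third start of Ubr4 held 23.3% to 30.6% in 6 libraries and was not listed in imidacloprid.

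**Figure D4:**
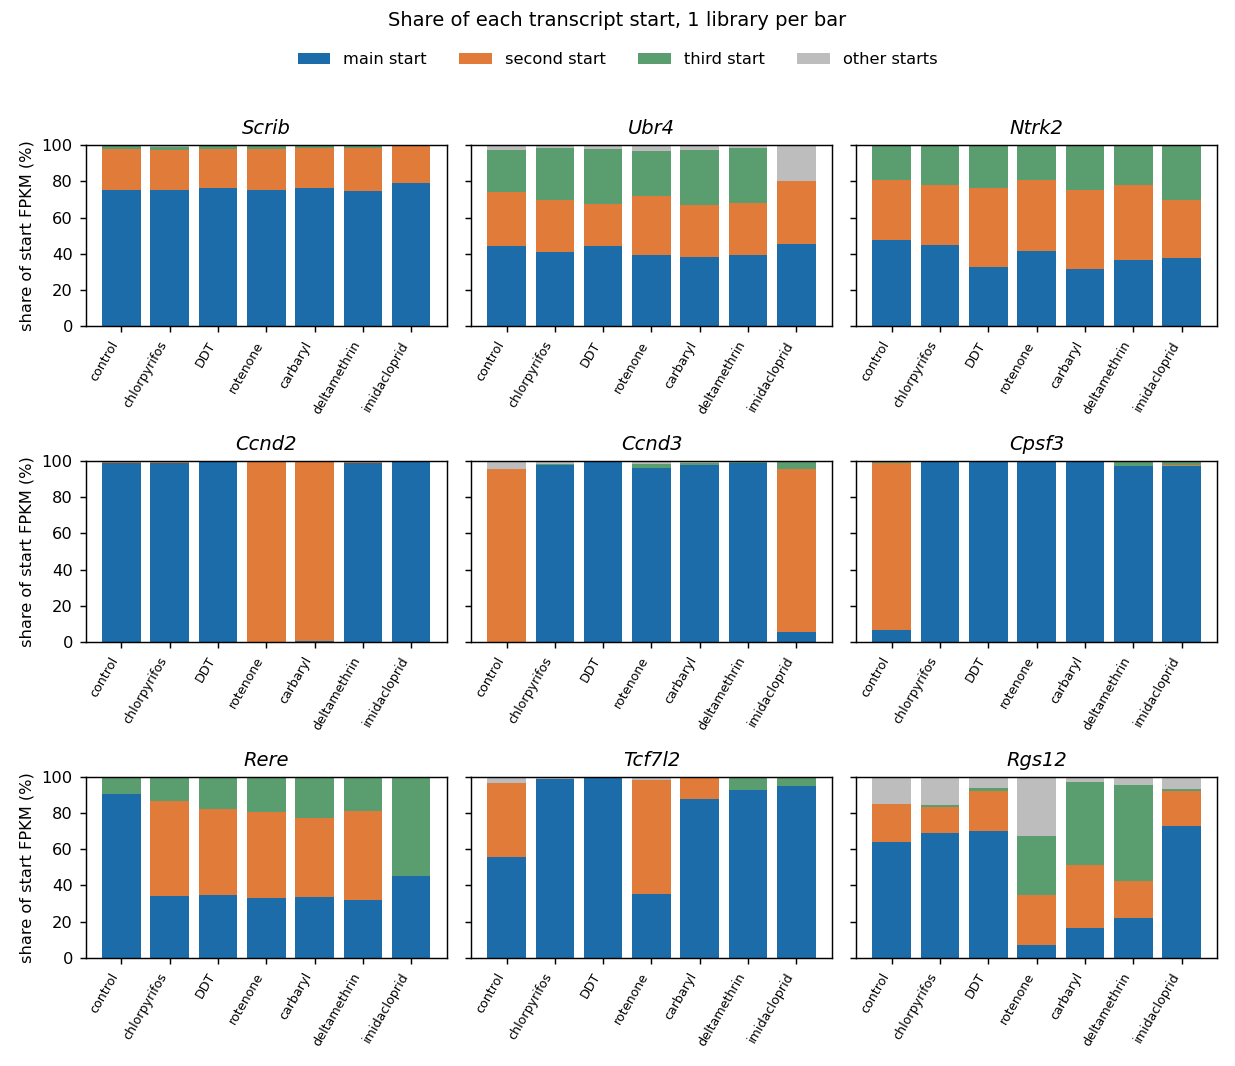
Percentage of a gene's start FPKM at its main start (blue), second start (orange), the third start (green) and all other starts (grey), with 1 bar per library. Scrib, Ubr4 and Ntrk2 keep similar proportions in most libraries, whereas in Ccnd2, Ccnd3, Cpsf3, Rere, Tcf7l2 and Rgs12 the main start gives way to another in some of them.

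In a few genes control lay apart from all 6 exposed libraries, and the 4 with the widest gap were chosen for it. Cpsf3 encodes the endonuclease that cuts pre-mRNA before the poly(A) tail is added. Its main start, on chromosome 12 with a first exon from 21286358 to 21286544, held 6.79% in control and 99.4% in chlorpyrifos, 99.7% in DDT, 99.5% in rotenone, 99.5% in carbaryl, 96.9% in deltamethrin and 97.2% in imidacloprid. A start 967 bp upstream held 92.1% in control and at most 0.3% elsewhere, and the start total of 23.6 FPKM in control lay within the 21.2 to 28.7 FPKM of the exposed libraries.

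Galnt11, which starts O-linked sugar chains on proteins including Notch1, had a main share of 11.4% in control against 70.7% in chlorpyrifos, 74.4% in DDT, 73.7% in rotenone, 76.2% in carbaryl, 71.5% in deltamethrin and 77.1% in imidacloprid. Its start total was steady at 8.99 to 9.75 FPKM. Gabpb1, the partner subunit of the ETS factor GABP, had 38.4% in control and 91.4% to 99.6% in the exposed libraries, with a start total of 17.3 FPKM in control and 10.2 to 12.02 FPKM elsewhere. Rere, a corepressor of the atrophin family that acts in retinoic acid signalling, went the other way. Its main share was 90.4% in control, 34.0% in chlorpyrifos, 35.0% in DDT, 32.9% in rotenone, 33.6% in carbaryl, 31.8% in deltamethrin and 45.4% in imidacloprid. The second start of Rere, 206747 bp downstream, was not listed in control or imidacloprid and held 43.8% to 52.7% in the other 5.

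Genes with the most starts of weight spread their transcripts thinly. Ciz1, a nuclear matrix protein of DNA replication, had 10 starts and a main share of 0.873% in imidacloprid to 42.4% in rotenone. Adgrb1, an adhesion receptor of synapses and phagocytosis, had 8 starts and 16.3% to 53.7% at the main one. The third start held 50.6% in chlorpyrifos and 43.4% in rotenone and was at or near 0 in the other 5. Mcf2l, a guanine nucleotide exchange factor, had 13 starts, with under 0.1% at the main start in chlorpyrifos and rotenone and 23.4% to 64.4% in the rest. Synj1, the phosphoinositide phosphatase of synaptic vesicle recycling, had 7 starts and a main share of 9.85% to 31.8%.

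The gene lists below are read against all tested genes, of which 2616 (37.5%) moved in at least 1 of the 6 comparisons and whose median range was 18.8 points. Counts of lists are descriptions of genes picked for known alternative promoters or for a pathway. The lists also differed in median main share, with 55.8% in synapse and neurotrophin genes and 96.9% in sterol and lipid synthesis genes. Of all tested genes, 79.0% moved at a mean main share under 60%, and 2.33% moved at 95% or more. How far main share accounts for differences between lists was not tested.

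Transcription and chromatin regulators had the widest ranges of the 9 lists. Of 26 genes, 21 had 2 or more starts and 20 were tested. Of these, 15 moved in at least 1 comparison (75%), and the median range was 62.0 points. In single comparisons 4 to 7 rose and 0 to 5 fell. The median main share of the list was 69.3%, against 91.7% over all tested genes. Tested genes with a mean main share of 60 to 80% moved in 76.4%, with a median range of 50.9 points. Tcf7l2 had its main start on chromosome 19 at 55741820 and a second start 153690 bp downstream. The main share was 55.8% in control, 98.6% in chlorpyrifos, 99.7% in DDT, 35.4% in rotenone, 87.8% in carbaryl, 92.8% in deltamethrin and 94.6% in imidacloprid, at start totals of 8.53 to 12.4 FPKM. Control and rotenone were low, with 40.6% and 62.5% at the second start.

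Meis1, a homeobox cofactor of HOX proteins, had 90.5% in control, 95.5% in deltamethrin, 100% in chlorpyrifos, DDT, carbaryl and imidacloprid, and 13.1% in rotenone. The start total hardly varied, from 9.63 to 10.9 FPKM, and the start 2696 bp away took 86.9% in rotenone. Pax6, the homeobox master gene of eye and cortical progenitors, had a main share of 49.3% in control, 82.4% in chlorpyrifos, 24.0% in DDT, 70.0% in rotenone, 44.1% in carbaryl, 41.8% in deltamethrin and 48.1% in imidacloprid. Its 2 leading starts lie 937 bp apart, and a first exon that begins at the same base as the main one held another 3.5% to 19.3%.

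Nfia, a factor that switches neural progenitors towards glia, had 49.3% in control, 79.3% in chlorpyrifos, 98.6% in DDT, 36.3% in rotenone, 74.6% in carbaryl, 98.7% in deltamethrin and 96.7% in imidacloprid. It thus rose in 5 of the 6 libraries and was 13.1 points below control in rotenone. Dnmt3a, a de novo DNA methyltransferase, had 91.7% in control, 20.2% in chlorpyrifos, 56.9% in rotenone, 84.1% in carbaryl and 23.0% in deltamethrin, and was not listed at that start in DDT and imidacloprid. Its first 2 starts begin at the same base, 3807030 on chromosome 12, so most of this change is between 2 ends of 1 first exon. The third start of Dnmt3a, downstream at 3891728, held 5.93% in control and 14.1% to 41.8% in the exposed libraries.

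Tcf4 and Tcf12 are E proteins that pair with proneural factors. Tcf4 had 21 starts, a main share of 14.1% in control, 65.8% in chlorpyrifos, 16.9% in DDT, 46.6% in rotenone, 14.7% in carbaryl, 46.0% in deltamethrin and 31.0% in imidacloprid, and a total that ran from 18.4 FPKM in deltamethrin to 48.5 FPKM in control. Tcf12 fell in chlorpyrifos (53.9%), DDT (31.7%) and imidacloprid (56.9%) from 83.0% in control. Sox6, Zeb2, Auts2, Nr3c1, Rara, Rarb, Dnmt3b and Sox5 also moved, with ranges of 51.8 to 78.0 points in 7 of them and 82.3 points in Rara. Steady members were Dnmt1, the maintenance methyltransferase, with a range of 2.68 points, and Gnas, which encodes the stimulatory G protein subunit, with 60.4% to 73.2% at its main start.

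The sterol and lipid synthesis genes were at the other end. Of 20 genes, 16 were tested, the median range was 3.67 points, and 1 moved. Insig1, Sqle, Cyp51, Idi1 and Fasn kept 97.9% or more at the main start in every library. The exception was Dhcr7, the last enzyme of the Kandutsch-Russell branch, with 62.3% in control, 66.6% in chlorpyrifos, 63.1% in DDT, 71.4% in rotenone and no main start listed in carbaryl, deltamethrin and imidacloprid. In these 3 the start total was 28.7, 100.5 and 62.9 FPKM, with the second start at 95.3% in carbaryl and the third at 97.9% in deltamethrin. These genes are also among the more abundant, 11 of the 16 with a mean start total above 50 FPKM, and the part of that in their small range was not tested.

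**Figure D5:**
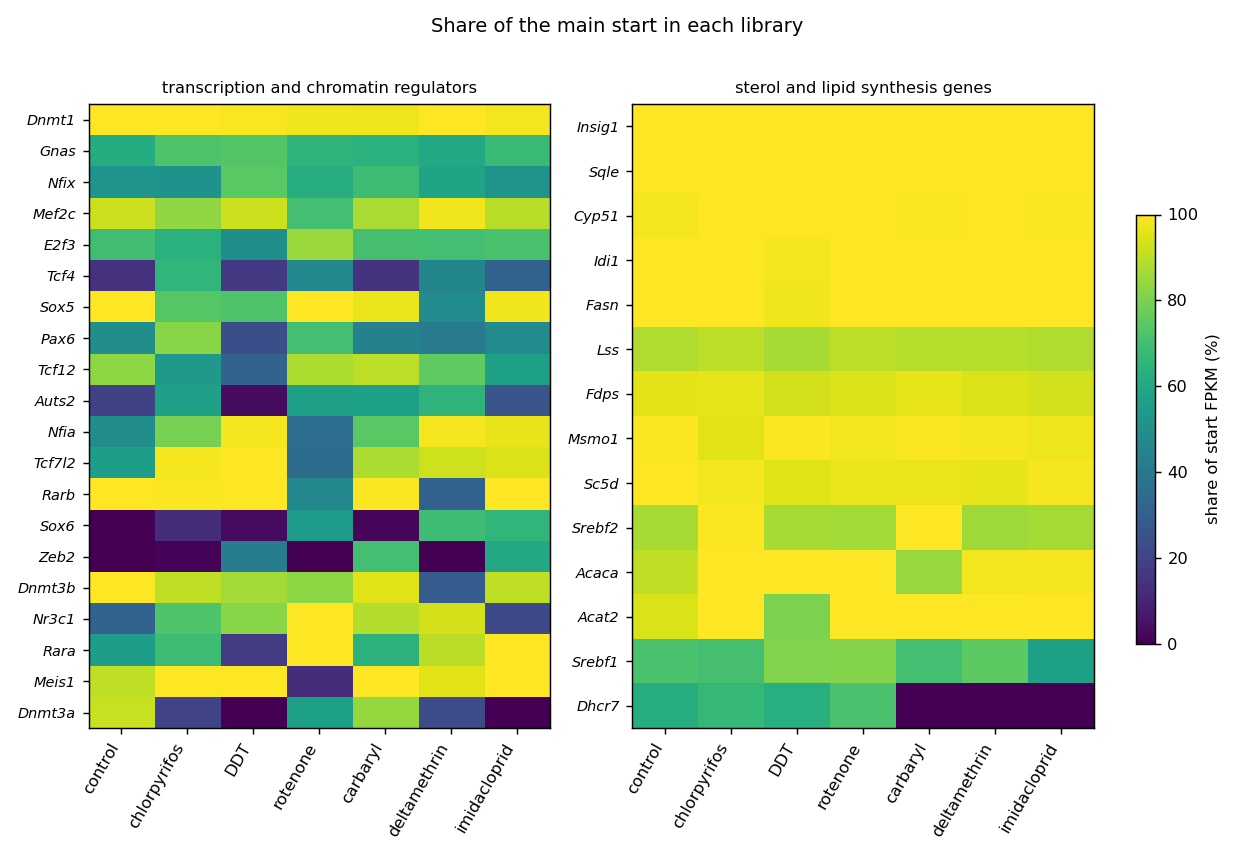
Main start share in percent (colour) for tested members of 2 gene lists (rows, ordered by range, with 2 sterol genes not shown) in the 7 libraries (columns). Among transcription and chromatin regulators most rows change colour between libraries, with a median range of 62.0 points, whereas most sterol and lipid synthesis genes stay near 100% and have a median range of 3.67 points.

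Among synapse and neurotrophin genes, 12 of 20 were tested, 8 moved and the median range was 47.5 points. Ntrk2, the receptor of BDNF, varied over 15.8 points: its 3 starts lie close together on chromosome 13, at 58806569, 58807693 and 58808281, and the main one held 47.7% in control, 44.6% in chlorpyrifos, 32.6% in DDT, 41.7% in rotenone, 31.8% in carbaryl, 36.7% in deltamethrin and 37.7% in imidacloprid. Gabbr1, the GABA-B receptor subunit that binds the transmitter, makes its 2 classic isoforms from different promoters. Its main start held 29.4% in control, 86.5% in chlorpyrifos, 25.4% in DDT, 35.1% in rotenone, 34.1% in carbaryl, 15.7% in deltamethrin and 84.9% in imidacloprid. Chlorpyrifos and imidacloprid were high, and they also had the lowest start totals, 19.3 and 19.98 FPKM against 27.7 to 35.9 FPKM.

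Nrxn3, a presynaptic adhesion receptor, fell from 100% in control to 60.4% in DDT, 39.1% in rotenone, 57.1% in deltamethrin and 31.3% in imidacloprid, at start totals of 1.76 to 3.13 FPKM. Bdnf, Shank2 and Rims1 had several starts but did not pass the filter on start totals.

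Cytoskeleton genes moved in 7 of 18 tested, a share of 38.9% that is near the 37.5% of all genes. Sept9, whose 3 windows are printed above, had 81.3% in control, 78.1% in chlorpyrifos, 62.8% in DDT, 47.6% in rotenone, 39.2% in carbaryl, 49.6% in deltamethrin and 39.4% in imidacloprid. It thus fell in the last 4, with control and chlorpyrifos highest, at start totals of 126 to 182 FPKM. Its second start rose to 46.7% in deltamethrin from 15.5% in control, and the third start held 2.2% in control and 27.8% to 34.0% in DDT, rotenone, carbaryl and imidacloprid. Map2, the dendritic microtubule protein, kept its main start at 61.6% to 89.9% with start totals of 132 to 157 FPKM, and Tpm4 stayed within 1.67 points.

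Signalling genes moved in 10 of 18 tested, with a median range of 36.8 points. Rgs12 had 64.1% in control, 68.7% in chlorpyrifos, 70.3% in DDT, 7.05% in rotenone, 16.5% in carbaryl, 22.2% in deltamethrin and 72.8% in imidacloprid. Of the libraries, 4 lay between 64.1% and 72.8% and 3 between 7.05% and 22.2%, with nothing between them, while the start total stayed within 12.3 to 15.8 FPKM. In the 3 low libraries the third start, at 34964773 on chromosome 5, held 32.6%, 46.1% and 53.3%, against at most 1.5% in the others. Fgfr1, a receptor of the bFGF in the growth medium, had 41.3% to 79.8% at its main start and moved in none but lay 24.6 points above control in deltamethrin, where its start total was lowest at 35.0 FPKM. Igf2, a growth factor, fell from 85.0% in control to 18.5% in chlorpyrifos.

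Stress response and p53 pathway genes moved in 5 of 15 tested (33.3%), with a median range of 20.3 points. Txnrd1, the thioredoxin reductase of the NRF2 response, had 58.6% in control, 64.4% in chlorpyrifos, 57.2% in DDT, 58.2% in rotenone, 62.9% in carbaryl, 61.8% in deltamethrin and 19.5% in imidacloprid. Imidacloprid alone was low, with 80.4% at the start 1122 bp away. Asns, the asparagine synthetase, rose in rotenone to 96.4% from 51.8%. Nfe2l1, a bZIP factor of proteasome genes, fell from 86.6% in control to 29.8% in carbaryl, 16.3% in deltamethrin and 11.3% in imidacloprid. The share it lost lay largely at first exons that match no annotated boundary in carbaryl (63.9%) and imidacloprid (84.0%). Cdkn1a, the p53 target that inhibits CDKs, rose in DDT (71.1%) and rotenone (74.0%) from 45.6% in control, between starts only 12 bp apart.

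Of the astrocyte and glial genes, 11 of 19 were tested, 3 moved and the median range was 9.88 points. The glutamate transporters Slc1a2 and Slc1a3, Glul, Ptprz1 and Cspg5 each stayed within 1 point. Apoe, the lipid carrier of astrocytes, rose from 36.1% in control in all but carbaryl, to 65.0% in chlorpyrifos, 99.7% in DDT, 79.7% in rotenone, 79.9% in deltamethrin and 97.7% in imidacloprid, with 44.1% in carbaryl. Its starts lie 180 bp apart and its start total varied from 2.21 to 27.3 FPKM. Clu and Bcan, an extracellular chaperone and a matrix proteoglycan, rose in 3 exposed libraries and in 1, respectively.

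Energy metabolism genes moved in 4 of 8 tested, namely Pfkfb2, Pfkfb3, Slc25a1 and Gapdh. Pfkfb2 had start totals of 1.79 to 2.56 FPKM, and Slc25a1 had 31.3 FPKM in rotenone and 0.275 to 0.757 FPKM elsewhere. Ldha had 79.2% in control, 96.3% in chlorpyrifos, 54.9% in DDT, 79.5% in rotenone, 80.3% in carbaryl, 69.3% in deltamethrin and 83.6% in imidacloprid, so it moved in none, with DDT the farthest at 24.3 points below control. Its CG-rich upstream start held 44.8% in DDT and 3.62% in chlorpyrifos, and the start total was 166 to 218 FPKM. Genes of the insecticides' known targets moved in 6 of 9 tested. Ndufs7 and Ndufv1, subunits of the complex I that rotenone blocks, differed: Ndufs7 fell from 99.9% to 45.7% in rotenone and 38.6% in imidacloprid, and Ndufv1 rose from 34.5% in control to 67.6% in rotenone and at least 99.98% in the other 5. The leading starts of Ndufv1 begin at the same base, and those of Ndufs7 lie 331 bp apart. Ache, the acetylcholinesterase that chlorpyrifos and carbaryl inhibit, ranged from 0.364% in rotenone to 100% in imidacloprid, but its start totals were 0.319 to 2.04 FPKM and its starts 7 bp apart. Scn8a, a voltage-gated sodium channel of the class that DDT and deltamethrin act on, had 78.3% in control, 88.1% in DDT, 78.1% in rotenone, 35.7% in carbaryl and 22.9% in deltamethrin, and its main start was not listed in chlorpyrifos and imidacloprid, at start totals of 1.86 to 4.86 FPKM.

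Transcript ends could be followed in fewer genes. In 1237 tested genes with 2 or more listed ends, the share of the main end ranged over a median of 9.30 points. It ranged over 23.2 points in the 33 of these genes whose main start went from 90% or more to 10% or less, and over 9.02 points in the others. The 2 sets were not matched for level, and their difference was not tested. Of all 299 genes with such a main start, 199 had a mean start total of 1 to 5 FPKM.

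Markers were checked against the labelled cell type through the start totals. All 7 neural progenitor markers were at 1 FPKM or more, with a summed level of 1355 FPKM in control and 1232 to 1507 FPKM in the exposed libraries. Most of the control sum was Vim at 1075 FPKM and Nes at 206 FPKM, and the other progenitor markers were at 6.72 to 24.7 FPKM. Of the neuron markers, 5 of 6 summed to 209 FPKM in control and 198 to 228 FPKM in the exposed libraries. Map2 made up 150 FPKM of that control sum, and no start of Tubb3 was listed in any library. Of 6 astrocyte markers, 3 reached 1 FPKM, and Gfap, S100b and Aqp4 stayed under it in every library. In the oligodendrocyte list Olig2 was listed at 53.4 FPKM in DDT and 140.1 FPKM in imidacloprid and at 0 elsewhere, while Olig1 was at 0 in all 7. Pluripotent, microglial and endothelial markers were unlisted or listed under 1 FPKM, which does not show that such cells were absent, since Tubb3 and the glycolytic gene Pkm were also unlisted. The 4 mesenchymal markers summed to 9.16 FPKM in control and 10.04 to 17.2 FPKM in the exposed libraries. Their part in the changes of start share was not tested.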

How the data were processed

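Total RNA of 7 libraries, 1 per group, was read from the authors' deposited tables, which list transcript-structure events with FPKM values, per the file headers. The submitters' processing notes name HISAT2 2.0.1, cutadapt 1.9.1, bcl2fastq 2.17.1.14 and the build GRCm38. Which program estimated the FPKM is not given in the sources. No scaling was added. The smallest value was 1e-06 FPKM, with no counts, so sequencing depth cannot be read from the files and intervals are not given. Sample titles gave the groups, and all 7 libraries were used.

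Starts were grouped by gene identifier and inner first-exon boundary (Python 3.11.15, pandas 2.3.3) and matched to GENCODE M21, of the same build. Shares, the main start and the 25-point threshold are defined in the report. Genes needed a mean start total of at least 1 FPKM and a total above 0 in all 7 libraries. Promoters came from RefSeq, GRCm38.p6. The steps were tested on simulated data.

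The members and gene lists were chosen with earlier results of these data known. Named genes had a mean start total of at least 5 FPKM, 2 or more starts of at least 5% mean share on 1 chromosome and strand, all matching the gene, and leading starts 500 bp or more apart. Of these, the 2 largest rises and 2 largest falls per comparison, the 4 smallest ranges, the 4 with most starts and the 4 with control farthest apart were named. Of each list, up to 4 members of highest start total and any moved member were eligible to be named. The steady members Cspg5, Slc1a2, Slc1a3, Cyp51, Insig1 and Fasn were named after their values were seen. Some genes that the rule names are not reported here. The classes by distance, start codon, CG content, level, main share and complete exchange were also chosen after seeing the data. The alternatives tried were other thresholds, level filters, merging of close starts, dropping of weak starts, a pseudocount, matched starts only, another choice of main start and leaving out each library.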

Additional observations from a re-analysis of the deposited data

How the results depend on the processing

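Of 158 recomputed values of the 6 counts of moved genes, the count of genes with a changing leading start and the median range, 109 stayed within 1.5 times of the value reported and 49 did not. With no replicates, this limit of 1.5 also served for the median range. No paired analysis was possible because each group holds 1 library, so the groups share fewer than 2 replicate numbers.

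The moved counts below are for chlorpyrifos, DDT, rotenone, carbaryl, deltamethrin and imidacloprid in that order. At a threshold of 10 points they were 2313, 2301, 2321, 2267, 2270 and 2305, and at 50 points 408, 384, 369, 388, 350 and 387. With a mean start total of at least 5 FPKM they were 681, 671, 645, 661, 655 and 692 of 5415 genes, and with at least 10 FPKM 445, 429, 415, 435, 432 and 449 of 3895. Chosen after seeing the data, starts 500 bp or more apart gave 555, 594, 558, 570, 568 and 592 of 3788 genes. Genes whose start and end totals were alike within 0.3 on the log2 scale gave 481, 468, 474, 459, 464 and 471 of 3638, and the plus strand alone gave 582, 610, 591, 594, 610 and 623 of 3740. In these 3 restricted sets and the 2 level filters fewer genes were tested, and the percentages were 10.7% to 16.7%. Dropping starts under 5% mean share left 3811 genes, of which 26.9% to 28.3% moved.

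The leading start changed in 1248 genes at 5 FPKM or more, 826 at 10 FPKM or more, 970 with starts 500 bp or more apart, 773 with start and end totals alike and 1027 on the plus strand. The median range was 11.7 points with at least 10 FPKM and 40.9 points without starts under 5%. Without each library in turn, the leading start changed in 1758 to 1790 genes and the median range was 16.8 to 17.2 points. Chosen after seeing the data, leaving out each other exposed library in turn, with the main start set over the remaining 6, gave moved counts of 1105 to 1117 for chlorpyrifos, 1086 to 1091 for DDT, 1069 to 1074 for rotenone, 1069 to 1088 for carbaryl, 1080 to 1090 for deltamethrin and 1120 to 1128 for imidacloprid. Without the control library there is no such count. The pseudocount, the filter on the lowest totals, merging of starts within 100 bp, matched starts only and a start total of at least 1 FPKM in every library kept every count within 1.5 times. The unknown depth limits what can be said of shares in genes of low level.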

Other observations

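Some loci listed under 1 gene identifier held the starts of neighbours. Of the 26450 starts, 1502 matched an exon boundary of another gene only, and 2714 matched no boundary of the annotation. Restricting each gene to the starts that match it left 6061 genes, in which the main start moved in 15.2% (deltamethrin) to 15.9% (imidacloprid) against control.

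Genes with a start on the plus strand had 2.48 starts each on that strand, and those with a start on the minus strand had 2.09. With starts counted over both strands, 64.2% of the former and 57.0% of the latter had 2 or more. Genes with starts on both strands were counted on each. The median range of the main start share was 18.7 points on the plus strand and 18.8 points on the minus strand.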
